A study of Homo sapiens with 9 samples.

Results

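The genes described here are 51 protein-coding genes whose mRNA, 2 h after treatment of human melanoma cells with either of 2 related compounds, was at 50% or less of its level in control cells. They were chosen from the deposited expression table of 62710 genes, of which 20048 are protein-coding and 10361 of these had a mean of at least 100 normalized counts in the control (DMSO) libraries. A normalized count is the number of reads on a gene divided by the size factor of the library. A gene was taken where the VHL-r mean and the R4VPL3-1 mean were each at most 50% of the DMSO mean and all 6 treated libraries lay below all 3 DMSO libraries, and 57 genes met these values. Of these, MYC, DKK1, DACT1, ADAMTS1, DUSP10 and KLF9 were left out by name, since the rule sets aside these first 4 and any gene whose name starts with DUSP, SPRY, KLF, ID or EGR, which left 51. The levels of the 51 genes with either compound against DMSO chose them, so those levels are given below as a description and were not tested, while the difference between the 2 compounds was tested, as the rule set no condition on it beyond the limit of 50% that bounds both.

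The cells were A375R, a line of A375 human melanoma cells resistant to the BRAF inhibitor PLX4032. According to the methods of the study, the line was cultured with PLX4032 in the medium. R4VPL3-1 is a PROTAC-like molecule in which a moiety that binds the ubiquitin ligase RNF4 is joined through a linker to a moiety that recruits the ubiquitin ligase VHL. VHL-r is the VHL-recruiting moiety alone, so the compounds differ by the RNF4-binding part and the linker. Cells received DMSO, 10 µM VHL-r or 10 µM R4VPL3-1, and poly(A) RNA of 3 biological repeats of each was sequenced, giving 9 libraries from a single line. The sample labels name these groups WT, VHL and L3linker_1, and they were matched to DMSO, VHL-r and R4VPL3-1 by the description of the series. The WT labels carry no dose or time, and the column of DMSO replicate 1 lacks the 2 h mark that the other 2 DMSO columns have.

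Many of the 51 genes encode transcription factors, cytokines, kinases and membrane receptors, classes of gene that respond quickly to signals. Such genes often have few and short introns and mRNAs that turn over fast, and so their mRNA level can follow a change of transcription within hours. Several are regulators of the neural crest, the embryonic tissue from which melanocytes arise, and melanoma cells use some of them to move between more and less differentiated states. All 51 genes passed the filter for the test, a mean of at least 10 normalized counts over the 9 libraries, which 15230 genes passed.

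The promoters of 43 of the 51 genes were found in the RefSeq table for GRCh38.p14, each running from 250 bases before to 50 bases after the RefSeq start site. FOXC2, HOXB2, HOXC11, LIF, LRATD2, RIPK4 and TFAP2C were among those not matched. The TATA box TATAAA, searched on both strands, was present in 12 of the 43 promoters, or 27.9%, against 4.98% of the 8528 promoters of protein-coding genes with a DMSO mean of at least 100 and 11.95% of all 27305 promoters. The AP-1 motif TGANTCA was present in 7 of 43, or 16.3%, against 4.25% of the 8528 and 7.76% of all. On the sense strand, TATAAA began between 40 and 20 bases before the start site in 4 of 43 promoters, or 9.30%, against 1.37% of the 8528. These shares describe the letters in these windows and were not tested. The 150 bases before the start site are printed for 3 of the 4 genes with such a TATA box, for UCN2 with its AP-1 motif and for FOXD3 with the cAMP response element TGACGTCA, each 5′ to 3′ on the strand of the gene with the motif in capitals, because these are the members whose motif lies close to a start site that RefSeq and the deposited table place at the same base. They lie at chr10:35642297-35642446 (FZD8, minus strand), chr1:152325240-152325389 (FLG, minus), chr17:41060115-41060264 (KRTAP2-3, minus), chr3:48563782-48563931 (UCN2, minus) and chr1:63322417-63322566 (FOXD3, plus).
FZD8: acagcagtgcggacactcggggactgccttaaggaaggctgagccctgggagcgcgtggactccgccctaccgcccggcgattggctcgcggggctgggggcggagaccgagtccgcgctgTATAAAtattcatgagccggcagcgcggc
FLG: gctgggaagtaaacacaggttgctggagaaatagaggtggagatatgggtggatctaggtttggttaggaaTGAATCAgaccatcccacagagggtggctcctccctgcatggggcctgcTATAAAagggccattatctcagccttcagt
KRTAP2-3: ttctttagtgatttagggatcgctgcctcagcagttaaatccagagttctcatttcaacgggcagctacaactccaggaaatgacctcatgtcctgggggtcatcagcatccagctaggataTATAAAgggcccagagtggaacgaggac
UCN2: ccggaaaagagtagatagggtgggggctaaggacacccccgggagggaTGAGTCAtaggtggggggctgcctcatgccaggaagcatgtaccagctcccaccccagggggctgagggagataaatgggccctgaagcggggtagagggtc
FOXD3: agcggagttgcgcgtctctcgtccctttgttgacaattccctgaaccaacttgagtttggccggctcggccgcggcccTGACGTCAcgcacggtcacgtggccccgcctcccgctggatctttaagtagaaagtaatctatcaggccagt
The TATA box began 29 bases before the start site in FZD8, 30 in FLG and 28 in KRTAP2-3, and FLG carried an AP-1 motif 79 bases before it as well. The AP-1 motif of UCN2 began 102 bases and the cAMP response element of FOXD3 72 bases before the start site. The fourth gene with a TATA box in this position was CXCL8, whose start site differs between the annotations.

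The GC box GGGCGG and the ETS core CCGGAA were in fewer of the members' promoters than of the 8528, at 58.1% against 71.9% and 18.6% against 31.5%, where all 27305 promoters stood at 44.6% and 17.6%. Of the other motifs searched, CCAAT was in 32.6% against 37.5%, the E-box CACGTG in 11.6% against 10.4% and TGACGTCA in 4.65% against 3.51%. The TEAD motif GGAATG was in 9.30% against 10.6% and the CArG box in 2.33% against 1.13%. The heat shock element was in none of the 43 and in 0.293% of the 8528. The median GC content of the members' promoters was 61.0% against 65.7%.

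The structure of the members, which the rule did not use, also differed from that of expressed protein-coding genes as a whole. The comparison was with the 10359 matched protein-coding genes with a DMSO mean of at least 100, which include the members. It is a description and was not tested. In the GENCODE 44 annotation of GRCh38 the members' canonical transcripts had a median of 3 exons, against 10 exons for those genes. The transcript had a single exon in 8 of the 51 members, or 15.7%, against 1.67% of those genes, and these 8 were KRTAP2-3, FOXD3, MAB21L1, FOXC2, POU3F2, FJX1, FZD8 and WDR5B. At most 3 exons were present in 27 of 51, or 52.9%, against 10.7%, and more than 10 exons in 4 of 51, or 7.84%, against 45.4%. The median span in the genome was 8992 bases against 36843, and 28 members, or 54.9%, spanned less than 10000 bases, against 16.4%. The spliced transcript was of similar length, with a median of 3548 bases against 3562, and its GC content had a median of 46.9% against 47.6%. At the long end were ADAMTS6 with 25 exons over 333183 bases, ARID5B over 195261, SGK1 over 148865 and ZNF608 over 111895. The motif ATTTA, the core of AU-rich elements that mark unstable mRNAs, occurred at least 5 times in the 3′ UTR of 27 members, or 52.9%, against 36.1% of 10337 genes, and at a median of 2.91 per kb against 1.83 per kb.

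The libraries held 26435568 to 32085626 reads on genes, with a median of 28165279, and mitochondrially encoded genes took 2.14% to 2.59% of them. The label of melanoma cells was checked on 8 melanocyte and melanoma genes, of which SOX10, MITF, DCT, S100B and PMEL had a DMSO mean of at least 10, while MLANA had no read in any library. The sum of the 8 genes was 20733 to 22517 normalized counts with DMSO, 11788 to 14670 with VHL-r and 10359 to 12525 with R4VPL3-1. Most of it was SOX10, which with MITF (means of 1722, 1047 and 1012 with DMSO, VHL-r and R4VPL3-1) made up nearly all of the difference, while DCT (1347, 1261 and 1223), S100B (730.3, 677 and 642) and PMEL (29.9, 32.5 and 28.98) had overlapping libraries across the treatments. Of genes of dedifferentiated melanoma, AXL was at means of 10993, 9751 and 9750 with DMSO, VHL-r and R4VPL3-1, NGFR at 1088, 998 and 878 and EGFR at 469, 506 and 585. The 4 keratinocyte and epithelial genes summed to at most 394.1, nearly all KRT14, the 3 immune genes (PTPRC, CD3E and CD68) to at most 11.8 and the 2 endothelial genes (PECAM1 and CDH5) to at most 13.3 in any library. Their part in the members' levels was not tested, and in RNA of a whole culture fewer cells of a type and less RNA per cell cannot be told apart.

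Seen library by library, the members split by treatment. The median member stood at 106%, 101.5% and 92.5% of its DMSO mean in DMSO replicates 1, 2 and 3, at 42.7%, 44.2% and 42.9% in the VHL-r libraries and at 35.7%, 36.9% and 37.6% in the R4VPL3-1 libraries. DMSO replicate 3 was the lowest DMSO library for 35 of the 51 members, and R4VPL3-1 replicate 1 the lowest R4VPL3-1 library for 34. Without DMSO replicate 3 the same rule gave 54 genes, 50 of them members, and without DMSO replicate 1 it gave 46 genes, 44 of them members. The spread between libraries was modest for most members, with a median coefficient of variation of 10.4% with DMSO, 7.60% with VHL-r and 10.3% with R4VPL3-1. The widest were KRTAP2-3 with DMSO at 35.8%, TFAP2B with VHL-r at 29.8% and B3GALT2 with R4VPL3-1 at 62.0%.

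**Figure D1:**
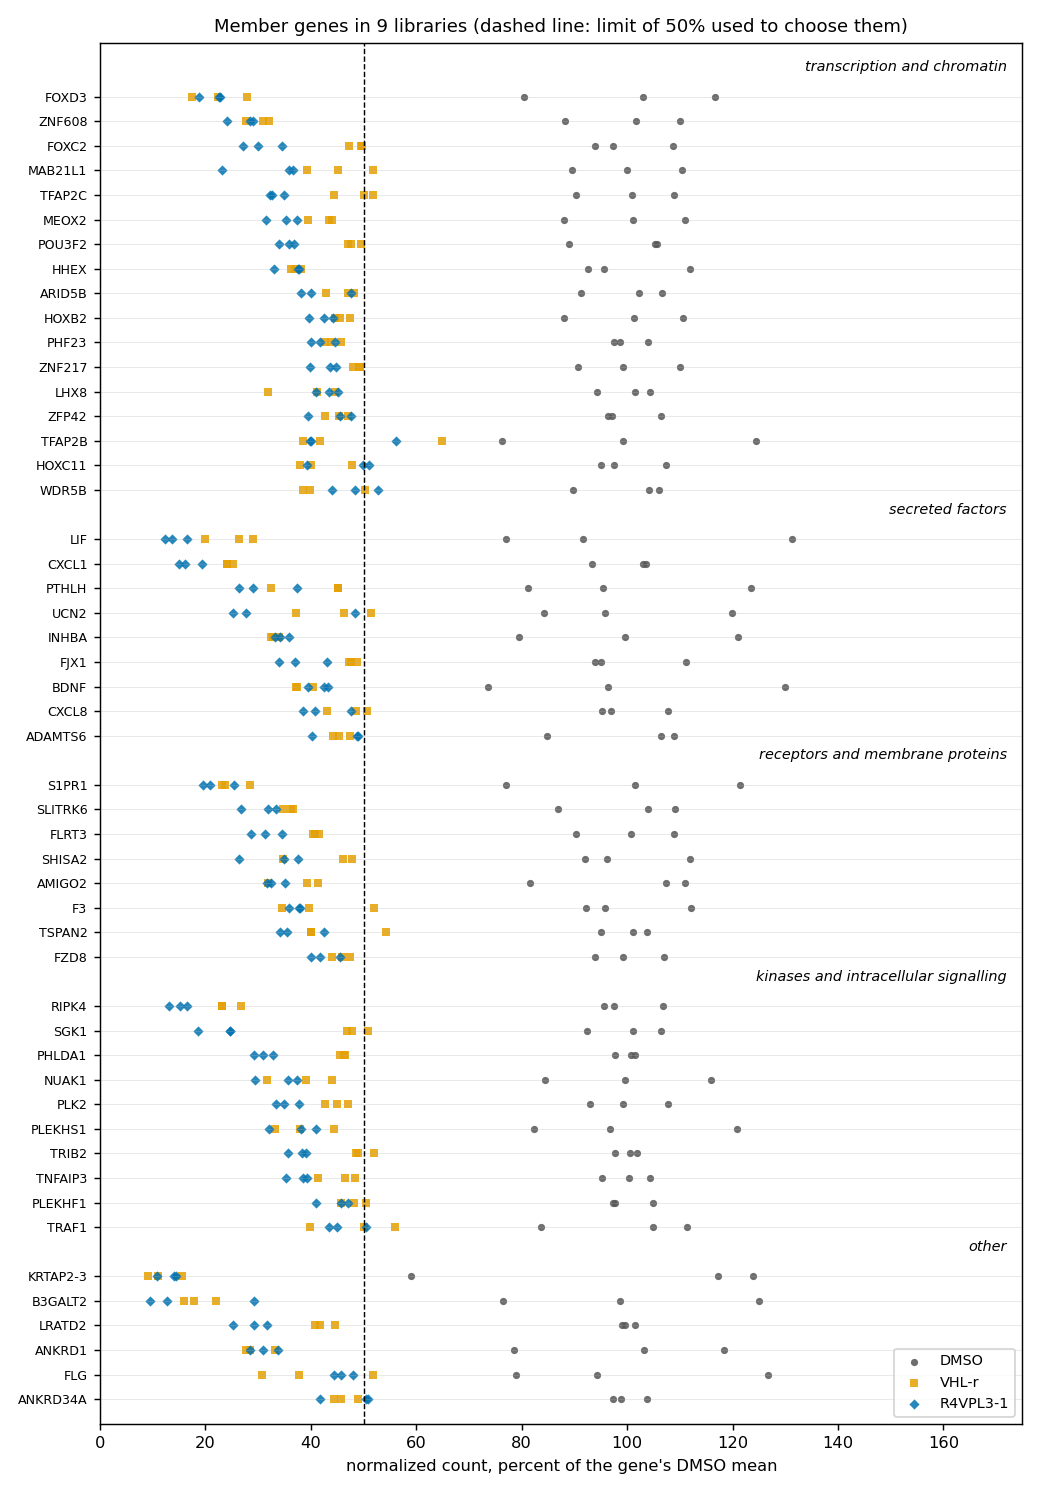
Normalized count of each member named here in each of the 9 libraries as a percent of the gene's own DMSO mean (x axis), with genes grouped by role and ordered by the R4VPL3-1 mean (y axis); points are libraries, coloured by treatment. Every treated point lies left of every DMSO point of its gene, as the rule requires, and the medians are 42.8% with VHL-r and 35.5% with R4VPL3-1 over the 51 genes.

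Among the members, the VHL-r mean lay between 11.9% and 49.8% of the DMSO mean, with a median of 42.8%, and the R4VPL3-1 mean between 13.1% and 48.3%, with a median of 35.5%. On the log2(normalized count + 1) scale the median difference from DMSO was -1.22 with VHL-r and -1.49 with R4VPL3-1, both set by the choice, while over the 15230 genes tested the medians were -0.0045 and -0.0063. For scale, limma called 9.51% of the genes tested lower and 10.3% higher with VHL-r than with DMSO, and 11.8% lower and 13.1% higher with R4VPL3-1 than with DMSO. The limit of 50% cut through a continuous range. The members closest inside it were FOXC2, ZNF217 and TRIB2, whose larger treated mean was 48.7%, 48.8% and 49.8% of the DMSO mean. The genes closest outside were GDNF, TWIST1 and B3GNT7, at 51.1%, 51.3% and 51.3%. The condition on VHL-r alone, with its 3 libraries below DMSO, held for 61 genes, that on R4VPL3-1 alone for 91 and both for 57, so 34 genes met it with R4VPL3-1 and not with VHL-r and 4 the reverse.

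**Figure D2:**
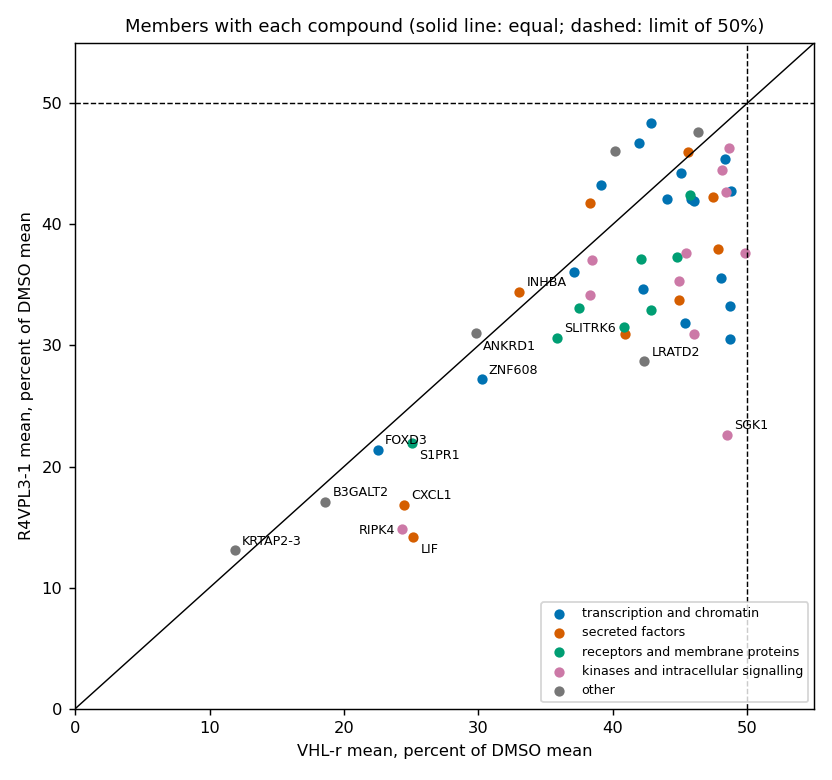
Mean normalized count of each member with VHL-r (x axis) and with R4VPL3-1 (y axis), each in percent of the DMSO mean, coloured by role; the solid line marks equal levels and the dashed lines the limit of 50%. Of the 51 genes, 41 lie below the line of equal levels, with SGK1, LIF and RIPK4 far from it and KRTAP2-3, FOXD3 and ANKRD1 close to it.

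R4VPL3-1 and VHL-r were compared at the same dose and time with limma, fitted to all 9 libraries and adjusted over the 15230 genes by the Benjamini-Hochberg method. They are the only pair of compounds here, so 1 pair was compared. The level was lower with R4VPL3-1 than with VHL-r at an adjusted p of at most 0.05 for 13 of the 51 members and higher for 0, where over all genes tested 0.729% were called lower and 1.14% higher. At an unadjusted p of at most 0.05 by limma, 22 members were lower and 0 higher, against 4.62% and 5.28% of the genes tested. On the recovered reads edgeR called 12 members lower and 0 higher, against 0.676% and 1.27% of genes, and DESeq2 called 14 lower and 0 higher, against 0.868% and 1.38%. The 13 genes were SGK1, LIF, RIPK4, FOXC2, PHLDA1, LRATD2, TFAP2C, CXCL1, POU3F2, TRIB2, FLRT3, PLK2 and FJX1. For 20 members every R4VPL3-1 library lay below every VHL-r library, against 7.11% of the genes tested, and for 0 members every library lay above, against 6.99%. The median difference over the members was -0.17 on the log2 scale, with 41 of 51 below 0, against -0.0056 and 52.4% over the genes tested. The rule capped both compounds at the same level, so a member near 50% with either compound had little room to be higher with the other. It also left out the 34 genes that met the condition with R4VPL3-1 and not with VHL-r, and the 4 of the reverse. The numbers of members called and the split of directions have to be read with that cap, which the genes tested as a whole did not have. Among those called, SGK1, FOXC2, TFAP2C, POU3F2 and TRIB2 were at 48.1% to 49.8% of the DMSO mean with VHL-r. RIPK4, CXCL1 and LIF were further from the limit, at 24.3% to 25.1%. The shares over all genes tested are therefore given for scale only.

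**Figure D3:**
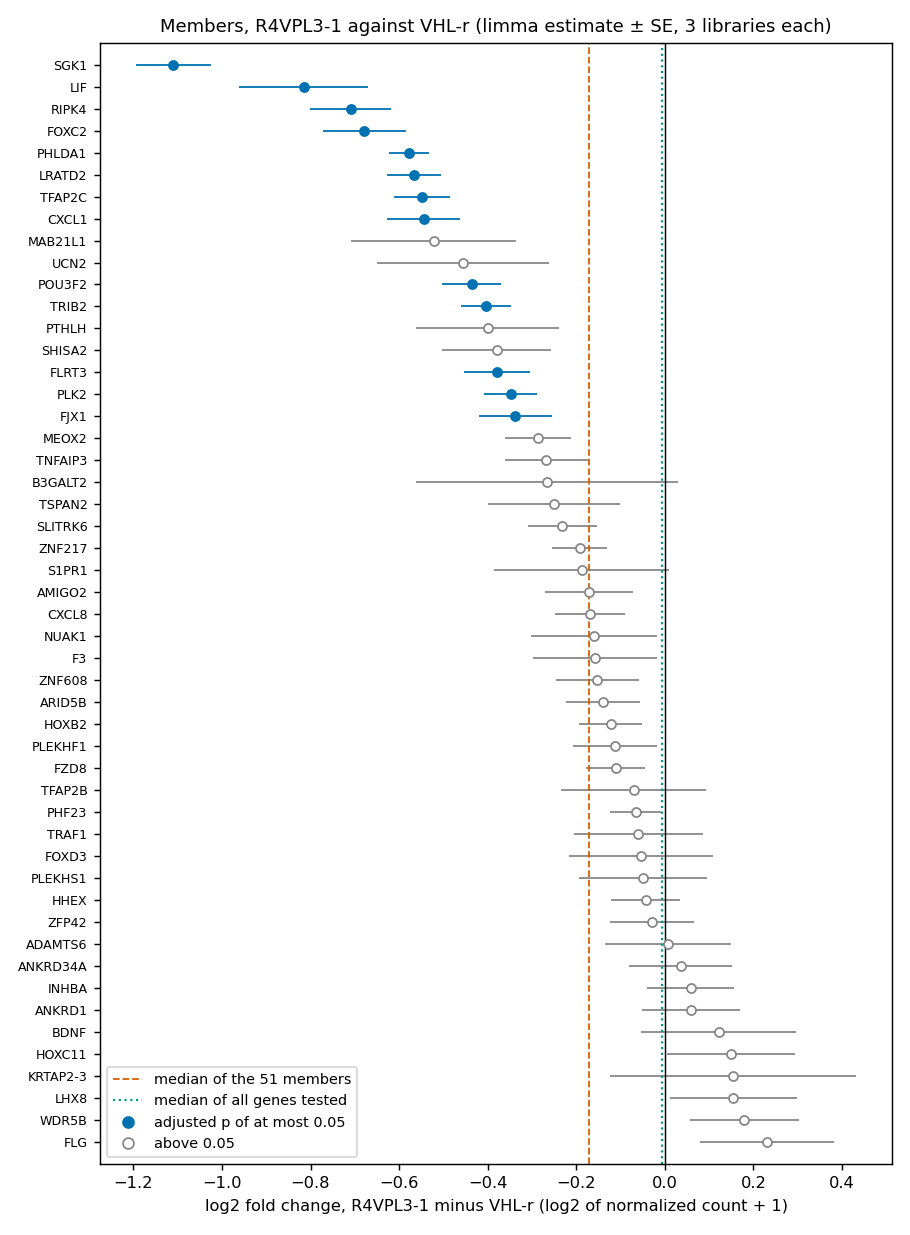
Difference between R4VPL3-1 and VHL-r for each member named here in log2(normalized count + 1), as the limma estimate with its SE from 3 libraries each (x axis); genes are ordered by the difference (y axis). Filled points are the 13 genes at an adjusted p of at most 0.05, all to the left of 0, and the dashed line marks the members' median of -0.17.

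How often a member was called went with its level. Of the 14 members with a DMSO mean of 2000 or more, 8 were called lower with R4VPL3-1 than with VHL-r and their median difference was -0.38, of the 18 members between 500 and 2000 it was 5 with a median of -0.16, and of the 19 below 500 it was 0 with a median of -0.06. The median SE of the difference was 0.06, 0.09 and 0.15 in these classes, so a difference of the size seen in the first class was harder to detect in the last. Of the other 10310 protein-coding genes with a DMSO mean of at least 100, 944 were called lower with both compounds than with DMSO without being members. Of those 944, 39, or 4.13%, were called lower with R4VPL3-1 than with VHL-r and 0 higher, and their median difference was -0.04. Among those of them at 2000 or more it was 25 of 390, or 6.41%. The members and these genes were both defined by the same libraries, so the shares are given side by side and were not tested.

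Kinases and other proteins of intracellular signalling made up 11 members, and for all 11 the difference between R4VPL3-1 and VHL-r was below 0. Over all members it was below 0 for 41 of 51, and over the genes tested for 52.4%. The cap set by the rule applies to the counts of each class as well. Of the 11 members of this class, 5 were called lower with R4VPL3-1. SGK1 (chr6:134169248-134318112), a kinase that acts downstream of PI3 kinase on ion transport and survival, was at 3685, 3503 and 3200.4 normalized counts with DMSO, 1652, 1759.5 and 1623 with VHL-r and 641, 856 and 855 with R4VPL3-1. Every R4VPL3-1 library was far below every VHL-r library, and the means were 48.5% of the DMSO mean with VHL-r and 22.6% with R4VPL3-1. The difference between the compounds was -1.11 ± 0.08 on the log2 scale (SE, n = 3 each, limma adjusted p = 2.32e-08), the most negative of the 51. RIPK4 (chr21:41739369-41767089), a receptor-interacting kinase needed for epidermal differentiation, was at 1407, 1541 and 1379 normalized counts with DMSO, 333, 386 and 334 with VHL-r and 188, 237 and 219 with R4VPL3-1. It was low with VHL-r already, at 24.3% of the DMSO mean with VHL-r and 14.9% with R4VPL3-1, and the groups did not overlap, with a difference of -0.71 ± 0.09 (adjusted p = 4.74e-05).

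PHLDA1 (chr12:76025447-76031776), a pleckstrin homology-like protein induced by growth factor signalling, had the highest DMSO level of the members in normalized counts, at 10972, 11316 and 11394 normalized counts with DMSO, 5109, 5189 and 5214 with VHL-r and 3276, 3462 and 3673 with R4VPL3-1. The libraries of each group lay close together, and the difference of -0.58 ± 0.05 had the lowest SE among the members (adjusted p = 3.41e-08). TRIB2 (chr2:12716910-12742734), a pseudokinase that directs substrates to the ubiquitin ligase COP1, was at 2178, 2273 and 2241 normalized counts with DMSO, 1085, 1158 and 1092 with VHL-r and 796, 854 and 870.4 with R4VPL3-1. Its VHL-r mean was the closest of all members to the limit, at 49.8% of the DMSO mean with VHL-r and 37.7% with R4VPL3-1, and the compounds differed by -0.40 ± 0.06 (adjusted p = 1.19e-04). PLK2 (chr5:58453982-58460139), a polo-like kinase that responds to stress and acts in centriole duplication, was at 4364, 4737 and 4086 normalized counts with DMSO, 1875, 1979 and 2071 with VHL-r and 1467, 1533 and 1657 with R4VPL3-1. The R4VPL3-1 libraries were again all below the VHL-r libraries, by -0.35 ± 0.06 (adjusted p = 0.00139).

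The other 6 genes of this class did not pass the test. TNFAIP3, or A20, which restrains NF-kB signalling by editing ubiquitin chains, was at 575, 524 and 553 normalized counts with DMSO, 256, 267 and 227 with VHL-r and 212, 194 and 216 with R4VPL3-1. Its R4VPL3-1 libraries were all below the VHL-r libraries, with a difference of -0.27 ± 0.09 and an adjusted p of 0.221 by limma. TRAF1, an adaptor of TNF receptors, was at 48.6% of the DMSO mean with VHL-r and 46.3% with R4VPL3-1, with a 95% interval of the difference of -0.36 to 0.24. NUAK1, an AMPK-related kinase, was at 38.3% of the DMSO mean with VHL-r and 34.1% with R4VPL3-1. The pleckstrin homology proteins PLEKHF1 and PLEKHS1 were at 48.1% and 44.5% and at 38.4% and 37.1% of the DMSO mean with VHL-r and R4VPL3-1.

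Secreted factors made up 9 members, of which 3 were called lower with R4VPL3-1 than with VHL-r. LIF (chr22:30240453-30246759), a cytokine of the interleukin-6 family, was at 5051, 3526 and 2958 normalized counts with DMSO, 1017, 1117 and 767 with VHL-r and 476, 638 and 525 with R4VPL3-1. The DMSO libraries were widely spread, yet the lowest of them was 2.65 times the highest treated library, and the means were 25.1% of the DMSO mean with VHL-r and 14.2% with R4VPL3-1. R4VPL3-1 lay below VHL-r in every library by -0.82 ± 0.15 (limma adjusted p = 0.00213), a call that was lost with the robust option of limma, at an adjusted p of 0.281. CXCL1 (chr4:73869393-73871308), a chemokine that attracts neutrophils through CXCR2, was at 1965, 1953 and 1769 normalized counts with DMSO, 477, 455 and 458 with VHL-r and 285, 306 and 366 with R4VPL3-1. Its VHL-r libraries were nearly equal, and the R4VPL3-1 libraries lay below them by -0.54 ± 0.08 (adjusted p = 3.44e-04). FJX1 (chr11:35618460-35620865), the relative of the Drosophila protein four-jointed, was at 1522, 1302 and 1287 normalized counts with DMSO, 652, 646 and 667 with VHL-r and 506, 590.0 and 466 with R4VPL3-1. Its difference of -0.34 ± 0.08 was the smallest of those called (adjusted p = 0.0328), and it was not called by edgeR, at an adjusted p of 0.0508, or in 5 of the 6 fits that left out a VHL-r or R4VPL3-1 library, at adjusted p of 0.0810 to 0.131.

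CXCL8 (chr4:73740519-73743716), or interleukin-8, lies 125677 bases from CXCL1 on chromosome 4, the only pair of members within 1 Mb of each other. It was at 1652, 1868 and 1678 normalized counts with DMSO, 746, 842 and 879 with VHL-r and 668, 705 and 825 with R4VPL3-1. Unlike for CXCL1, the groups of the compounds overlapped, and the difference was -0.17 ± 0.08 with a 95% interval of -0.33 to -0.0032. INHBA, the subunit of activin A, was at 2262, 1862 and 1485 normalized counts with DMSO, 605, 636 and 612 with VHL-r and 671, 639.7 and 619.9 with R4VPL3-1, and the difference of 0.06 ± 0.10 had an interval of -0.15 to 0.26, which holds 0. BDNF, a neurotrophin, was at 38.3% of the DMSO mean with VHL-r and 41.8% with R4VPL3-1, and ADAMTS6, a secreted metalloprotease, at 45.6% of the DMSO mean with VHL-r and 45.99% with R4VPL3-1, both with a difference above 0 that was not called. PTHLH, the parathyroid hormone-related protein, was at 40.9% of the DMSO mean with VHL-r and 30.9% with R4VPL3-1. UCN2, or urocortin 2, a ligand of a corticotropin-releasing hormone receptor, was at 44.9% of the DMSO mean with VHL-r and 33.8% with R4VPL3-1. Their differences were -0.40 ± 0.16 and -0.46 ± 0.19, with adjusted p of 0.357 and 0.3998 by limma. That of UCN2 was -0.28 without R4VPL3-1 replicate 2 and -0.74 without R4VPL3-1 replicate 3, where it was called (adjusted p = 0.0139 by limma). Of the exon bases of UCN2, 19.9% lie under exons of PFKFB4 on the same strand, so reads there may have been left unassigned.

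**Figure D4:**
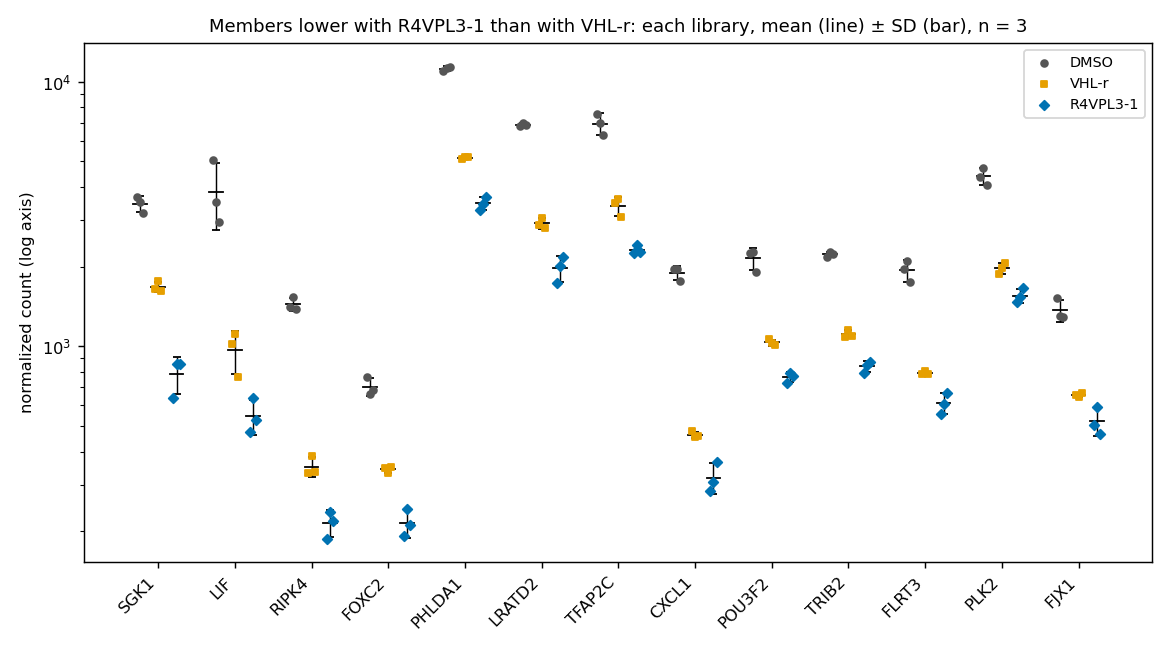
Normalized count of the 13 members called lower with R4VPL3-1 than with VHL-r, on a log axis (y axis), by gene (x axis) and treatment; points are libraries, lines the mean and bars the SD (n = 3). In each gene the 3 DMSO libraries lie above the 3 VHL-r libraries, which lie above the 3 R4VPL3-1 libraries, as for SGK1 with means at 48.5% and 22.6% of DMSO.

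Receptors and other membrane proteins made up 8 members, all with a difference below 0 under the same cap, and 1 of them was called. FLRT3 (chr20:14322985-14337614), a leucine-rich repeat protein that binds latrophilins and FGF receptors, was at 1953, 2109 and 1750.3 normalized counts with DMSO, 789, 804 and 784 with VHL-r and 554, 608 and 669 with R4VPL3-1. Its R4VPL3-1 libraries lay below all VHL-r libraries by -0.38 ± 0.07 (limma adjusted p = 0.00474). SLITRK6, a neuronal leucine-rich repeat protein, was at 4143, 3944 and 3301 normalized counts with DMSO, 1389, 1375 and 1315 with VHL-r and 1015, 1208 and 1265 with R4VPL3-1. Here too the groups did not overlap, but the difference of -0.23 ± 0.08 was not called (adjusted p = 0.205). AMIGO2, a leucine-rich repeat adhesion protein, was at 37.5% of the DMSO mean with VHL-r and 33.1% with R4VPL3-1. S1PR1, the receptor of sphingosine 1-phosphate, was at 179, 149.6 and 114 normalized counts with DMSO, 34.02, 42.02 and 34.8 with VHL-r and 37.4, 30.8 and 28.9 with R4VPL3-1. It was among the 10 members furthest below DMSO, at 25.1% and 21.97% of the DMSO mean, with no call between the compounds and an interval of -0.60 to 0.22.

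FZD8, a Wnt receptor, was at 1580.0, 1705 and 1495 normalized counts with DMSO, 702, 754 and 731 with VHL-r and 637, 725 and 665 with R4VPL3-1, and its difference between the compounds had a narrow interval, -0.25 to 0.03. SHISA2, which holds back the maturation of Wnt and FGF receptors, was at 42.8% of the DMSO mean with VHL-r and 32.9% with R4VPL3-1, with a difference of -0.38 ± 0.12 that was not called (adjusted p = 0.162 by limma). F3, or tissue factor, which starts the extrinsic pathway of coagulation, was at 42.1% of the DMSO mean with VHL-r and 37.1% with R4VPL3-1. The tetraspanin TSPAN2 was at 44.8% of the DMSO mean with VHL-r and 37.3% with R4VPL3-1.

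Proteins of transcription and chromatin were the largest class, with 17 members, of which 3 were called lower with R4VPL3-1 than with VHL-r. TFAP2C (chr20:56629306-56639283), an AP-2 factor of the neural crest and epidermis, had the highest DMSO level per length, 2430.3 normalized counts per kb of canonical transcript, where the members ranged from 25.7 to 2430.3 per kb. It was at 7571, 7015 and 6280.1 normalized counts with DMSO, 3476, 3603 and 3087 with VHL-r and 2245, 2426 and 2273 with R4VPL3-1. The groups were separate, with a difference of -0.55 ± 0.06 between the compounds (adjusted p = 1.25e-05 by limma). Its relative TFAP2B, in contrast, was at 2921, 3799.6 and 4763 normalized counts with DMSO, 1472, 1597 and 2485 with VHL-r and 1527, 1535 and 2152 with R4VPL3-1. In each group replicate 3 was the highest TFAP2B library, the groups of the compounds overlapped, and the difference was -0.07 ± 0.16 with an interval of -0.41 to 0.27. FOXC2 (chr16:86566829-86569728), a forkhead factor of mesenchyme and lymphatic vessels, was at 766, 661 and 686 normalized counts with DMSO, 348, 332 and 349 with VHL-r and 191, 243 and 211 with R4VPL3-1. It was close to the limit with VHL-r and well below it with R4VPL3-1, at 48.7% and 30.5%, and differed by -0.68 ± 0.09 (adjusted p = 1.16e-04). POU3F2 (chr6:98834574-98839458), or BRN2, a factor of invasive melanoma states, was at 2264, 2275 and 1916 normalized counts with DMSO, 1065, 1025 and 1013 with VHL-r and 728, 793 and 772 with R4VPL3-1, with a difference of -0.44 ± 0.07 (adjusted p = 3.44e-04).

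FOXD3 (chr1:63322567-63325128), a forkhead factor of the early neural crest whose promoter is printed above, was at 333, 484 and 427 normalized counts with DMSO, 72.05, 92.4 and 116 with VHL-r and 94.3, 93.5 and 78.2 with R4VPL3-1. Both compounds left it at nearly the same level, 22.5% and 21.4% of DMSO, and the interval of the difference was -0.39 to 0.29. ZNF608, a zinc finger protein, was at 1212, 1122 and 974 normalized counts with DMSO, 305, 340.4 and 354 with VHL-r and 266, 314 and 320.1 with R4VPL3-1, with a difference of -0.15 ± 0.09 that was not called. MEOX2, a mesenchymal homeobox factor, was at 3927, 4315 and 3417 normalized counts with DMSO, 1531, 1686 and 1709 with VHL-r and 1221, 1371 and 1453 with R4VPL3-1. Its groups did not overlap, and its difference of -0.29 ± 0.07 just missed the threshold (adjusted p = 0.0535 by limma). Of the other homeobox genes, HHEX, a factor of early liver and blood development, was at 37.1% of the DMSO mean with VHL-r and 36.1% with R4VPL3-1. HOXB2, which patterns the hindbrain, was at 45.8% of the DMSO mean with VHL-r and 42.1% with R4VPL3-1. HOXC11 was at 41.98% of the DMSO mean with VHL-r and 46.7% with R4VPL3-1, and LHX8, a factor of forebrain neurons, at 39.1% of the DMSO mean with VHL-r and 43.2% with R4VPL3-1. None of these 4 was called, though for HOXB2 every R4VPL3-1 library was below every VHL-r library.

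The other 6 members of this class were also not called. ZNF217, a zinc finger protein of transcriptional repressor complexes, was at 3720.3, 3357 and 3069.6 normalized counts with DMSO, 1662, 1623 and 1668 with VHL-r and 1348, 1477 and 1514 with R4VPL3-1, without overlap, and differed by -0.19 ± 0.06 (adjusted p = 0.169 by limma). MAB21L1, which acts in eye development, was the lowest member of the class in normalized counts, at 146, 161 and 131 normalized counts with DMSO, 66.05, 75.6 and 57.4 with VHL-r and 52.3, 33.8 and 53.5 with R4VPL3-1. Its difference of -0.52 ± 0.19 was not called (adjusted p = 0.245 by limma) and was -0.31 without R4VPL3-1 replicate 2. ARID5B, a DNA-binding partner of a histone demethylase, was at 46.02% of the DMSO mean with VHL-r and 41.9% with R4VPL3-1. PHF23, a PHD finger protein, was at 44.1% of the DMSO mean with VHL-r and 42.1% with R4VPL3-1, and its interval of -0.19 to 0.05 allowed only a small difference in either direction. ZFP42, or REX1, a marker of pluripotent cells, was at 45.04% of the DMSO mean with VHL-r and 44.2% with R4VPL3-1. WDR5B, a WD repeat protein related to WDR5, was at 42.8% of the DMSO mean with VHL-r and 48.3% with R4VPL3-1, above VHL-r by 0.18 ± 0.12 without a call. With HOXC11 and LHX8 it was among the 3 genes of the class with a difference above 0.

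The last 6 members fall in none of these classes. KRTAP2-3, a keratin-associated protein of hair, had the lowest level of all members in percent, at 171, 161 and 81.1 normalized counts with DMSO, 15.01, 12.6 and 21.5 with VHL-r and 14.9, 19.9 and 19.3 with R4VPL3-1. DMSO replicate 3 stood well below the other 2 DMSO libraries, the treated libraries held few reads (12 in the lowest), and the interval of the difference between the compounds was wide, -0.43 to 0.74. Of its 100-base windows, 34.0% are also found in KRTAP2-1, KRTAP2-2 or KRTAP2-4, so its reads may be shared with those genes. B3GALT2, a galactosyltransferase, was at 197, 155 and 121 normalized counts with DMSO, 28.02, 25.2 and 34.8 with VHL-r and 14.9, 19.9 and 46.03 with R4VPL3-1, and R4VPL3-1 replicate 3 stood above the other 2 R4VPL3-1 libraries. LRATD2, a protein with a lecithin retinol acyltransferase-like domain, was the only gene of this group that was called, at 6819, 6991 and 6854 normalized counts with DMSO, 2872, 3067 and 2810.5 with VHL-r and 1740.5, 2013 and 2176 with R4VPL3-1. Every R4VPL3-1 library was below every VHL-r library, by -0.57 ± 0.06 (adjusted p = 5.29e-06 by limma).

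ANKRD1, an ankyrin repeat protein and a target of YAP and TEAD, was at 1510.1, 1733 and 1151 normalized counts with DMSO, 487, 405 and 416 with VHL-r and 452, 493 and 416 with R4VPL3-1. The compounds left it at nearly the same level, with an interval of -0.17 to 0.29. FLG, or filaggrin, of the cornified epidermis, was at 1039.7, 773 and 647 normalized counts with DMSO, 425, 309.9 and 252 with VHL-r and 364, 374 and 394 with R4VPL3-1, with a difference of 0.23 ± 0.15 that was not called (adjusted p = 0.717 by limma). It was 0.055 without VHL-r replicate 3 and 0.43 without VHL-r replicate 1. The keratinocyte and epithelial marker sum moved from 351 to 394 with DMSO to 303 to 321 with VHL-r and 251 to 300.5 with R4VPL3-1, a smaller change than that of FLG or KRTAP2-3. ANKRD34A was at 46.3% of the DMSO mean with VHL-r and 47.7% with R4VPL3-1.

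Genes of 13 lists of related pathways, members left aside, were compared with DMSO in the same limma fit to show what surrounded the members. Over all lists, 76 such genes were called lower and 76 higher with VHL-r, and 96 lower and 78 higher with R4VPL3-1. Some genes, such as TGFB2, NUAK2 and TRIB1, are in more than 1 list, so the counts of the lists do not add up to these totals. The totals are counts and not shares, while the number of genes tested is given with each list below. Over all 15230 genes tested, 9.51% were called lower and 10.3% higher with VHL-r. With R4VPL3-1 the shares were 11.8% and 13.1%. The list counts below were not tested against these shares. Some lie near them, as with 3 of 29 elongation and pausing genes lower with VHL-r. Others lie above them, as with 11 of 22 YAP-TEAD targets lower with VHL-r. A gene of a list at 50% or less with both compounds would mostly have been a member, which takes such falls out of these counts. Falls to 50% or less with R4VPL3-1 alone remain in them. IER3, for example, was at 67.8% of the DMSO mean with VHL-r and 25.2% with R4VPL3-1. The comparisons share the DMSO libraries.

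Lists in which more genes were lower than higher came first. Of 22 tested YAP-TEAD targets outside the members ANKRD1 and F3, 11 were lower and 0 higher with VHL-r, and 13 lower and 1 higher with R4VPL3-1. The most abundant of them, MYOF, was at means of 17482, 17265 and 18122 normalized counts with DMSO, VHL-r and R4VPL3-1, without a call. AMOTL1 changed by -0.27 ± 0.05 (SE, adjusted p = 2.10e-04) with VHL-r and by -0.46 ± 0.05 (SE, adjusted p = 2.46e-07) with R4VPL3-1 in the limma fit. Of 26 TGF-beta and BMP genes outside the member INHBA, 8 were lower and 3 higher with VHL-r and 13 lower and 2 higher with R4VPL3-1. None of these 26 had a name starting with ID, a family that the rule set aside by name. FST, or follistatin, which binds activin, went from a mean of 18371 to 9861 and 9466, with log2 differences of -0.89 ± 0.07 (SE, adjusted p = 9.88e-09) and -0.95 ± 0.07 (SE, adjusted p = 2.11e-09) by limma. SKI, a repressor of SMAD proteins, rose by 0.66 ± 0.05 (SE, adjusted p = 3.71e-09) and 0.58 ± 0.05 (SE, adjusted p = 1.39e-08).

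The list of ERK output held none of the families that the rule set aside by name, such as DUSP and SPRY. Of its 26 genes outside the members PHLDA1, LIF, CXCL8, CXCL1 and TRIB2, 9 were lower and 3 higher with VHL-r. With R4VPL3-1, 12 were lower and 2 higher. CCND1, or cyclin D1, the most abundant, changed by -0.40 ± 0.06 (SE, adjusted p = 4.01e-05) and -0.57 ± 0.06 (SE, adjusted p = 2.78e-07) in the limma fit. Of 34 regulators of the epithelial-mesenchymal transition and neural crest outside the members FOXC2, FOXD3, TFAP2B, TFAP2C and MEOX2, 12 were lower and 6 higher with VHL-r and 15 lower and 5 higher with R4VPL3-1. SOX10, a master factor of the melanocyte lineage, went from a mean of 17547 to 10200 and 8405, with differences of -0.79 ± 0.06 (SE, adjusted p = 3.14e-09) and -1.06 ± 0.06 (SE, adjusted p = 1.56e-11) by limma. Of 22 NF-kB targets outside the members TNFAIP3 and TRAF1, 8 were lower and 2 higher with VHL-r and 7 lower and 2 higher with R4VPL3-1, and BIRC2 changed by -0.33 ± 0.05 (SE, adjusted p = 1.12e-04) and -0.30 ± 0.05 (SE, adjusted p = 2.58e-04) by limma.

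Other lists were mixed or leaned the other way. The list of immediate early genes held none of the families that the rule set aside by name, such as EGR and DUSP. Of its 34 genes, 8 were lower and 16 higher with VHL-r and 8 lower and 19 higher with R4VPL3-1. MCL1 was at 0.28 ± 0.05 (SE, adjusted p = 1.01e-04) and 0.24 ± 0.05 (SE, adjusted p = 4.17e-04) by limma. FOSL1 went in the opposite direction, at -0.38 ± 0.08 (SE, limma adjusted p = 0.00174) and -0.55 ± 0.08 (SE, limma adjusted p = 3.07e-05). Of 19 labile kinases and kinase regulators outside the members SGK1, PLK2, TRIB2, NUAK1 and RIPK4, 2 were lower and 8 higher with VHL-r and 4 lower and 7 higher with R4VPL3-1. DYRK2 was among the lower, at -0.59 ± 0.05 (SE, adjusted p = 8.56e-08) and -0.79 ± 0.05 (SE, adjusted p = 5.91e-10) by limma, and DYRK3 among the higher. Of 25 Wnt genes outside the member FZD8, 4 were lower and 5 higher with VHL-r and 9 lower and 5 higher with R4VPL3-1. These 25 did not include DKK1 and DACT1, which the rule set aside by name. DKK1 was at 19.2% of the DMSO mean with VHL-r and 15.8% with R4VPL3-1, and DACT1 at 15.3% and 13.9%.

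The lists that hold no member gave similar counts in both directions or more genes that were higher. Among 21 Notch genes 3 were lower and 6 higher with VHL-r and 4 lower and 4 higher with R4VPL3-1. Among 34 cyclins, CDK inhibitors and mitotic regulators it was 5 and 6, then 7 and 7, and among 11 suppressors of cytokine signalling 2 and 5, then 2 and 3. Among 29 arrestin-domain and growth restraint genes it was 4 and 10, then 4 and 13. DDIT4, an inhibitor of mTORC1 in this list, was at means of 3265, 2261 and 14828 normalized counts with DMSO, VHL-r and R4VPL3-1, lower with VHL-r and higher with R4VPL3-1 at differences of -0.53 ± 0.13 (SE, adjusted p = 0.00477) and 2.14 ± 0.13 (SE, adjusted p = 7.26e-11) by limma. Among 29 genes of RNA polymerase II elongation and pausing it was 3 and 8, then 3 and 9, and POLR2A, its largest subunit, rose by 0.75 ± 0.06 (SE, adjusted p = 1.12e-08) and 0.82 ± 0.06 (SE, adjusted p = 1.97e-09).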

How the data were processed

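The study's RNA-seq of A375R cells was single-end, 100 bases, poly(A)-selected and stranded. According to the methods, reads were aligned to GRCh38 with STAR and counted with htseq-count. The deposited values are a signal, reads per gene divided by the size factors of DESeq2 1.36.0, so the authors' unit is neither raw nor length-scaled. Whole reads were recovered from the deposited steps, with at least 99.974% of values above 0 within 0.0051 of a whole read. Limma 3.58.1 (R 4.3.3, trend option) was fitted to log2(value + 1) for 15230 genes in a single-factor model, with Benjamini-Hochberg adjustment. edgeR 4.0.16 and DESeq2 1.42.0 on recovered reads, other scalings, pseudocounts, filters and left-out libraries were alternatives, and the fit was tested on simulated data. With 3 against 3 libraries an exact permutation test cannot go below p = 0.1, so none was used. Named genes were the 10 members with the lowest levels relative to DMSO, the 10 with the highest DMSO means, those called, list members, those nearest the limit and at most 3 non-members per list. The remaining members were named to account for the 51, except 1 that is counted but not reported here. The members and lists were chosen with earlier results of these data known. Structure came from GENCODE 44 and promoters from RefSeq.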

Additional observations from a re-analysis of the deposited data

How the results depend on the processing

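The number of genes that met the rule was 15 with a limit of 40% of the DMSO mean and 96 with a limit of 60%, against 51, and was 43 to 60 under the other alternatives. Between 12 and 16 members were called lower with R4VPL3-1 than with VHL-r under the alternatives, 0 were called higher, and the median difference stayed between -0.22 and -0.13. The fit with the replicate block called 15 members, 13 of them among the 13, and changed the call of MEOX2 and SHISA2. The replicate numbers paired the libraries weakly at most. Deviations of libraries with the same number correlated at -0.006 to 0.121, and those of libraries with other numbers at -0.148 to 0.098. An alternative chosen after seeing the data, without replicate 3 of every treatment, called 16 members, 12 of them among the 13.

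Calls changed under an alternative for 7 members: LIF and FJX1 lost theirs, and MEOX2, UCN2, SHISA2, SLITRK6 and AMIGO2 gained one. The sign of the difference turned for 13 members, none of them called, when libraries were left out, with ranges over the 9 libraries left out in turn of -0.721 to 0.059 for B3GALT2, -0.287 to 0.0034 for F3, -0.234 to 0.162 for TFAP2B, -0.196 to 0.048 for TRAF1, -0.225 to 0.113 for FOXD3, -0.150 to 0.058 for PLEKHS1, -0.076 to 0.020 for HHEX, -0.085 to 0.049 for ZFP42, -0.042 to 0.098 for ADAMTS6, -0.013 to 0.128 for ANKRD34A, -0.0031 to 0.141 for ANKRD1 and -0.0063 to 0.357 for KRTAP2-3. Without replicate 3 of every treatment it turned for NUAK1 (0.053), FOXD3 (0.2002), HHEX (0.016), ZFP42 (0.083) and ADAMTS6 (-0.014). The cause was not tested. For low members the counts limit what could be seen, with as few as 12 reads in a treated library.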

Other observations

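Rows of the table that are not protein-coding met the same values in 9 cases, again chosen by those values and not tested against DMSO. MIR222HG, the host transcript of the microRNAs miR-221 and miR-222, was at 369.6, 466 and 351 normalized counts with DMSO, 208, 242 and 139 with VHL-r and 96.2, 99.5 and 95.3 with R4VPL3-1. Its difference between R4VPL3-1 and VHL-r was -0.97 ± 0.16 on the log2 scale (SE, limma adjusted p = 6.35e-04), and among the members only SGK1 had a more negative difference. LINC02915 was at 22.3% and 21.04% of its DMSO mean with VHL-r and R4VPL3-1, SCAT8 at 46.7% and 42.7%, LINC02953 at 47.5% and 47.8% and the pseudogene GGT4P at 46.0% and 31.6%. The other 4 rows carry no symbol, and 1 of them, a long noncoding RNA gene at chr16:35499494-35522465 (GRCh38), was also called between the compounds. It was at 164, 263 and 247 normalized counts with DMSO, 78.1, 72.5 and 77.8 with VHL-r and 44.8, 33.8 and 40.7 with R4VPL3-1, with a difference of -0.93 ± 0.18 (SE, limma adjusted p = 0.00359). The other 7 of the 9 rows were not called.

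Of the 6 protein-coding genes left out by name, KLF9 was at 49.2% of the DMSO mean with VHL-r and 37.96% with R4VPL3-1, and the compounds differed by -0.38 ± 0.06 (SE, limma adjusted p = 4.48e-04). DUSP10 was at 22.7% and 25.9%, with every R4VPL3-1 library above every VHL-r library, which was seen in none of the 51 members, at a difference of 0.19 ± 0.08 (limma adjusted p = 0.388). DACT1 was at 15.3% and 13.9%, DKK1 at 19.2% and 15.8%, ADAMTS1 at 24.5% and 26.2% and MYC at 34.2% and 29.3%, with no call between the compounds.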
